A study of Rattus norvegicus with 6 samples.

Results

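Keratins of simple and reactive epithelium were followed in rat pancreas. They were taken by gene name, Krt8, Krt18, Krt7, Krt19, Krt20 and Krt23, and are 6 of the 34001 genes in the deposited table. RNA was sequenced from 6 Sprague-Dawley rats, an outbred strain, in 3 groups of 2. In the TP+hucMSC-Exs group the pancreas was crushed with an impactor (3 cm2, 10 kg) to cause traumatic pancreatitis (TP), and exosomes (vesicles that cells release) of human umbilical cord mesenchymal stem cells (hucMSC-Exs) were given into the tail vein at 10 μg per 100 g. TP rats had the same crush and 1 ml of saline. Control rats had the abdomen opened, the gland turned with swabs and 1 ml of saline, and tissue of all rats was taken at 24 h. The labels used here give neither age nor sex. Values were TPM, a measure of transcript level scaled for gene length and to the same total in every library, so sequencing depth was unknown.

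Keratins are the intermediate filament proteins of epithelial cells, and each filament joins a type I keratin with a type II keratin. Krt8 (type II) and Krt18 (type I) are the usual pair of simple epithelia, acinar and duct cells of the pancreas included. Krt7 (type II) and Krt19 (type I) are best known from duct epithelium, Krt20 (type I) from intestine and urothelium, and Krt23 is a type I keratin known from injured liver in mice. In mice, keratins of the Krt8 and Krt18 pair are known to increase in injured pancreas and liver.

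Krt8 and Krt18, whose values ran together in what follows, are next to each other on rat chromosome 7 in the RefSeq annotation of build GRCr8, and Krt20 and Krt23 are neighbours on chromosome 10. The stretch from position -190 to -71, counted from the annotated start, is shown for the pair, with capitals marking motif matches. It lies at chr7:135010410-135010529 on the minus strand for Krt8 and at chr7:135035978-135036097 on the plus strand for Krt18, from the RefSeq promoter table.
Krt8: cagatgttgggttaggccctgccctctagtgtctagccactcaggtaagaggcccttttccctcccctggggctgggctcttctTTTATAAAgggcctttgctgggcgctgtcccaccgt
Krt18: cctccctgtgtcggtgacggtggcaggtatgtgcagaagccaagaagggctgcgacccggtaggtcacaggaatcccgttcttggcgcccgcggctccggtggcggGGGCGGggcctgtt
Both strands of the whole window, from 250 bases before to 50 after the start, were searched for a TATA box (TATAAA), a GC box (GGGCGG), an AP-1 motif (TGANTCA) and a STAT motif (TTCNNNGAA). The capitals of Krt8 are a TATA box on each strand, overlapping each other, and those of Krt18 a GC box. The same letters stood in 14.2% and 33.1% of 33469 promoter windows. The window of Krt8 also held an AP-1 motif, found in 7.33% of windows, at position 14, and its annotated start is itself an ATG. Neither window held the STAT motif, which 8.87% of windows had. Of the 6 genes, 4 had an entry; Krt7 and Krt19 were not matched.

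The libraries differed in more than their keratins. The 21 acinar marker genes found in the table, such as the trypsinogen Prss1, summed to 573800 and 523400 TPM in the TP+hucMSC-Exs libraries, 656600 and 177900 TPM in the TP libraries and 733600 and 700500 TPM in the controls, so the labelled tissue was present in every library. TP replicate 2 stood apart. In it the median of all genes tested lay 3.00 (log2) above the control mean, against 0.97 and 1.22 for TP+hucMSC-Exs and 0.00 for TP replicate 1. Its adipocyte markers (8 of 10 listed were in the table) summed to 7946 TPM, against 22.7 to 47.1 TPM in the other 5 libraries. Its mesothelial markers (7 of 7) summed to 141 TPM, against 2.49 to 12.7 TPM elsewhere. In bulk tissue, fewer cells of a type and less RNA per cell cannot be told apart.

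Krt8 was the most abundant of the 6 keratins in every library. It stood at 412 and 519 TPM in the TP+hucMSC-Exs libraries, 49.0 and 35.6 TPM in the TP libraries and 32.2 and 34.9 TPM in the controls. Both treated libraries were far above the other 4, which lay close together. Krt8 averaged 465 ± 75.5 TPM with exosomes, 42.3 ± 9.43 TPM in TP and 33.6 ± 1.92 TPM in the controls (SD, n = 2 each). Each treated library held 8.42 to 10.6 times the level of TP replicate 1 and 11.6 to 14.6 times that of TP replicate 2. The log2 fold change of TP+hucMSC-Exs against TP, on the log2(TPM + 0.5) scale of all fold changes given, was 3.45 ± 1.27 (SE, n = 2 each; limma adjusted p = 1).

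Krt18, its type I partner, stood at 209 and 255 TPM in the TP+hucMSC-Exs libraries, 35.5 and 23.4 TPM in the TP libraries and 24.8 and 25.6 TPM in the controls. The treated libraries were again high, and the TP libraries lay on either side of the controls. Krt18 averaged 232 ± 33 TPM with exosomes, 29.5 ± 8.53 TPM in TP and 25.2 ± 0.523 TPM in the controls (SD, n = 2 each). The ratio to TP replicate 1 was 5.88 to 7.19 and that to TP replicate 2 was 8.91 to 10.9. The log2 fold change against TP was 2.98 ± 1.32 (SE; limma adjusted p = 1).

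Krt19, the duct-associated type I keratin, stood at 32.4 and 35.3 TPM in the TP+hucMSC-Exs libraries, 1.06 and 4.68 TPM in the TP libraries and 1.46 and 2.23 TPM in the controls. The treated libraries were alike and the TP libraries were not, with the controls between them. Krt19 averaged 33.8 ± 2.08 TPM with exosomes, 2.87 ± 2.56 TPM in TP and 1.85 ± 0.544 TPM in the controls (SD, n = 2 each). The ratio was 30.5 to 33.3 against TP replicate 1 and 6.91 to 7.54 against TP replicate 2. The log2 fold change against TP was 3.59 ± 1.43 (SE; limma adjusted p = 1).

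Krt7, the duct-associated type II keratin, stood at 14.8 and 23.5 TPM in the TP+hucMSC-Exs libraries, 0.32 and 4.99 TPM in the TP libraries and 0.51 and 0.71 TPM in the controls. Here TP replicate 2 was above the other TP library and both controls, and still below the treated libraries. Krt7 averaged 19.1 ± 6.15 TPM with exosomes, 2.66 ± 3.3 TPM in TP and 0.61 ± 0.141 TPM in the controls (SD, n = 2 each). The ratio was 46.1 to 73.3 against TP replicate 1 and 2.96 to 4.70 against TP replicate 2. The log2 fold change against TP was 3.17 ± 1.42 (SE; limma adjusted p = 1). Mesothelium, the lining of the abdominal organs, is known to express Krt7 and Krt19, and its marker Msln stood at 8.79 and 4.12 TPM in the TP+hucMSC-Exs libraries, 1.58 and 81.0 TPM in the TP libraries and 2.20 and 4.29 TPM in the controls. The part of mesothelium in the Krt7 and Krt19 levels of TP replicate 2 was not tested.

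Krt20 was low everywhere. It stood at 2.64 and 2.24 TPM in the TP+hucMSC-Exs libraries, 0.85 TPM in TP replicate 1, listed at 0 in TP replicate 2, and 0.92 and 0.37 TPM in the controls. The treated libraries were again the highest, by 2.64 to 3.11 times over TP replicate 1. Over all 6 libraries the mean of Krt20 was 1.17 TPM, and each library outside the treated group was below 1 TPM. Krt20 thus passed the filter of a mean of 1 TPM only through the treated libraries. The log2 fold change against TP was 1.84 ± 1.52 (SE; limma adjusted p = 1), and its 95% interval ran from -1.14 to 4.81.

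Krt23 stayed near the bottom of the scale, at 0.20 and 0.11 TPM in the TP+hucMSC-Exs libraries, 0.07 TPM and listed at 0 in the TP libraries, and listed at 0 and 0.09 TPM in the controls. It was below the filter of a mean of 1 TPM and was not tested, so 5 of the 6 genes entered the fit. With no filter its log2 fold change against TP was 0.29 (limma adjusted p = 1). All 6 values of Krt23 were at or below 0.20 TPM.

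**Figure D1:**
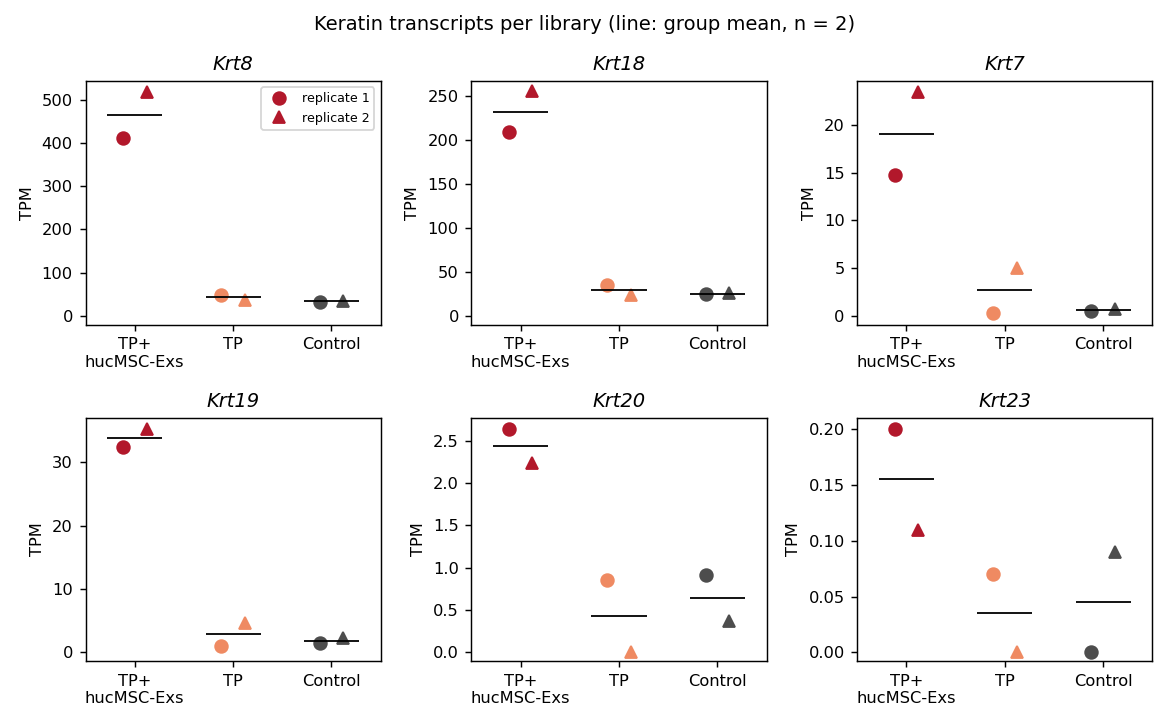
Each panel plots the TPM of one keratin (vertical axis, its own linear scale) in the 6 libraries; circles are replicate 1, triangles replicate 2, and lines group means (n = 2). Both TP+hucMSC-Exs libraries lie above the other 4 in every panel, from 412 and 519 TPM for Krt8 down to 0.20 and 0.11 TPM for Krt23. For Krt23 the gap is only that of 0.11 against 0.09 TPM, near the bottom of the scale.

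TP+hucMSC-Exs against TP asked what the exosomes changed in crushed pancreas. None of the 5 keratins tested passed an adjusted p of 0.05 in limma, in a fit in which 8 of 11477 genes did (0.0697%), 6 higher and 2 lower; after median-of-ratios scaling 2 did, both higher. At an unadjusted p below 0.05, 4 of the 5 were higher in limma, all but Krt20, against 0.758% of all genes tested. The treated and TP libraries did not overlap, with the treated ones higher, for 5 of 5, against 5.09% of all genes tested. The lowest treated library was at least 4 times the highest TP library for 3 of 5 (Krt8, Krt19 and Krt18), against 0.819% of all genes. Both treated libraries lay above all other 4 libraries for 5 of 5, against 4.65%. Krt20 is among the 5 only through its treated libraries, so its separation is not independent of the filter. The median log2 fold change of the 5 was 3.17, against -0.38 over all genes tested. Relative to that all-gene median, the log2 fold changes were 3.83 for Krt8, 3.35 for Krt18, 3.97 for Krt19, 3.55 for Krt7 and 2.21 for Krt20. An exact permutation test of 2 libraries against 2 cannot give a two-sided p below 0.333.

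Set against one TP library at a time, the keratins gave calls. With TP replicate 2 as the only TP library, 5 of 5 were higher at an adjusted p below 0.05 in limma, against 3.62% of all genes called higher and 79.5% called lower. The log2 fold changes were 3.68 for Krt8 (adjusted p = 0.00132), 3.27 for Krt18 (0.00183), 2.73 for Krt19 (0.00585), 2.55 for Krt20 (0.00569) and 1.80 for Krt7 (0.018). Keratins thus lay above a TP library in which most genes were at higher TPM than in the treated libraries. With TP replicate 1 as the only TP library, 4 of 5 were higher, against 1.73% of all genes: Krt7 by 4.54 (adjusted p = 0.035), Krt19 by 4.46 (0.0236), Krt8 by 3.23 (0.0161) and Krt18 by 2.68 (0.0289). Krt20 had 1.12 (adjusted p = 0.11). When the genes were filtered again on the 5 remaining libraries, 4 of 5 were called there against 40.1% of all genes, and 5 of 5 with TP replicate 2 against 3.66%. Either fit takes the difference between the TP libraries out of the shared variance, and assumes that the lone TP library varies like the other groups. Leaving out a treated or control library instead gave 0 of 5 calls, and 0 to 1 calls over all genes.

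TP+hucMSC-Exs against Control asked how treated crushed tissue differed from handled tissue. Krt7 had the highest log2 fold change, 4.11 ± 1.42 (SE; limma adjusted p = 0.575), then Krt19 with 3.89 ± 1.43 (0.784), Krt8 with 3.76 ± 1.27 (0.499), Krt18 with 3.17 ± 1.32 (0.8) and Krt20 with 1.40 ± 1.52 (0.8). None passed, while 24 of 11477 genes did (0.209%), and 4 of 5 had an unadjusted p below 0.05, against 2.85% of all genes higher. Libraries did not overlap for 5 of 5, but the same was true of 86.9% of all genes, whose median log2 fold change was 1.09. Relative to it, Krt7 stood at 3.02, Krt19 at 2.80, Krt8 at 2.67, Krt18 at 2.08 and Krt20 at 0.31. At least 4 times the highest control was reached by 4 of 5, all but Krt20, against 8.76%. Leaving out one or both TP libraries, 5 of 5 were called, as were 52.1% of all genes without TP replicate 1, 51.9% without TP replicate 2 and 52.3% without the TP group, so these calls did not set the keratins apart. The comparison shares its treated libraries with the one against TP.

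TP against Control asked what the crush changed. Log2 fold changes were 0.31 ± 1.27 for Krt8, 0.19 ± 1.32 for Krt18, 0.94 ± 1.42 for Krt7, 0.30 ± 1.43 for Krt19 and -0.44 ± 1.52 for Krt20 (SE; limma adjusted p from 0.602 to 0.906), below the median of all genes of 1.50. None passed, against 6 of 11477 genes (0.0523%), and 0 of 5 were higher at an unadjusted p below 0.05, against 3.96%. The libraries did not overlap for 1 of 5, Krt8, whose lower TP library of 35.6 TPM was next to a control of 34.9 TPM; this was so for 23.1% of all genes. The 95% interval for Krt8 ran from -2.18 to 2.80 (log2), so neither a rise nor a fall of 4-fold was beyond it. Krt7 and Krt19 pointed up with TP replicate 2 as the only TP library (2.31 and 1.16, limma adjusted p = 0.00482 and 0.0322, where 91.5% of all genes were called higher) and down with TP replicate 1 (-0.43 and -0.57, adjusted p = 1 for both). Krt20 fell with TP replicate 2 as the only TP library, where it was listed at 0 (-1.15, limma adjusted p = 0.0252, where 1.78% of all genes were called lower), and had 0.28 with TP replicate 1. Scaling by the median of gene ratios gave negative values for Krt8, Krt18, Krt7 and Krt19 (-1.37, -1.47, -0.44 and -1.14), with no call.

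**Figure D2:**
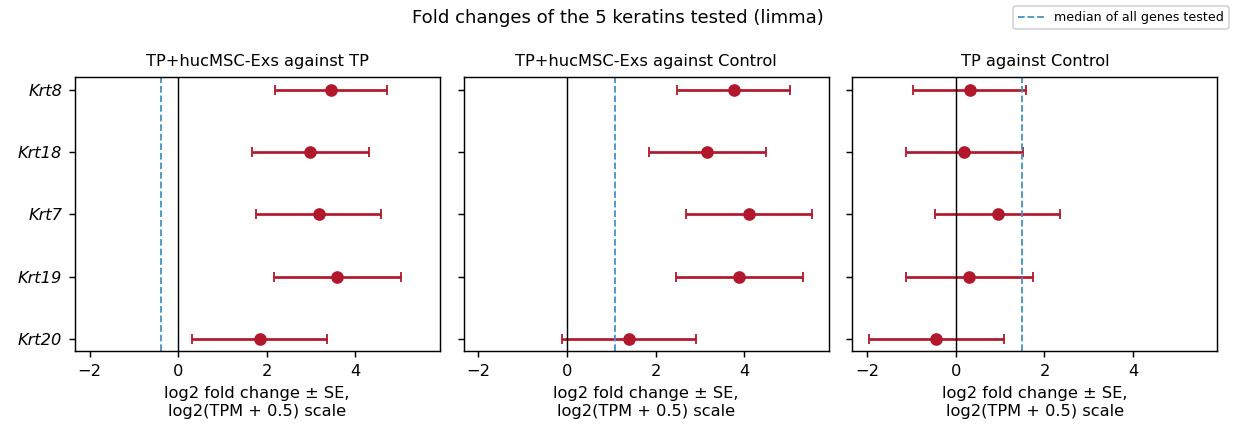
Log2 fold changes (horizontal axis, log2(TPM + 0.5) scale) of the 5 keratins tested in each comparison, with bars of 1 SE from limma; the dashed line is the median of all 11477 genes tested. Krt8, Krt18, Krt7 and Krt19 lie between 2.98 and 4.11 in both comparisons of the treated group, and within 1 of 0 for TP against Control.

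Because the composition of the libraries differed, the keratins were also read after median-of-ratios scaling, which sets the typical gene equal across libraries. Krt8 then stood at 344 and 354 scaled TPM with exosomes, 102 and 6.55 for TP, and 88.6 and 54.0 for Control. Krt18 had 174 and 174 with exosomes, 74.1 and 4.31 for TP, and 68.2 and 39.5 for Control. Krt7 had 12.3 and 16.0 with exosomes, 0.668 and 0.918 for TP, and 1.40 and 1.10 for Control. Krt19 had 27.0 and 24.1 with exosomes, 2.21 and 0.861 for TP, and 4.02 and 3.45 for Control. These 4 kept both treated libraries above the other 4, and the share of all genes that did so on this scale was not counted. Krt20 did not: its treated libraries, at 2.20 and 1.53, overlapped TP replicate 1 at 1.78 and control replicate 1 at 2.53. Nor did Krt23, at 0.167 and 0.0751 with exosomes, 0.146 in TP replicate 1 and 0.139 in control replicate 2. On this scale the log2 fold changes against TP were 3.70, 3.21, 3.50 and 3.76 for Krt8, Krt18, Krt7 and Krt19 (limma adjusted p = 0.65, 0.702, 0.079 and 0.0862). Against Control they were lower than on unscaled TPM, in the same order 2.33, 1.74, 3.06 and 2.62 in place of 3.76, 3.17, 4.11 and 3.89. Krt20 had 1.14 against TP and 0.38 against Control.

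Krt8 took a larger part of the keratin transcripts in the treated libraries than in the other 4. Together the 6 genes summed to 671 and 835 TPM in the TP+hucMSC-Exs libraries, 86.7 and 68.7 TPM in the TP libraries and 59.9 and 63.9 TPM in the controls. The TPM of Krt8 per TPM of Krt18 came to 1.98 and 2.03 with exosomes, 1.38 and 1.52 for TP, and 1.30 and 1.37 for Control. The treated libraries were thus above the other 4. Both TP libraries were above both controls, though at the closest only by 1.38 against 1.37. The ratio of summed type II to type I keratins was 1.75 and 1.85 with exosomes, against 1.32 and 1.45 for TP and 1.20 and 1.26 for Control. Krt7 and Krt19 together made up 7.02% and 7.03% of the keratin TPM with exosomes, 1.59% and 14.1% for TP, and 3.29% and 4.60% for Control, so the share lay between the TP libraries. Each ratio and sum of the treated libraries, other than that share against TP, had an exact two-sided permutation p of 0.333, the smallest possible.

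**Figure D3:**
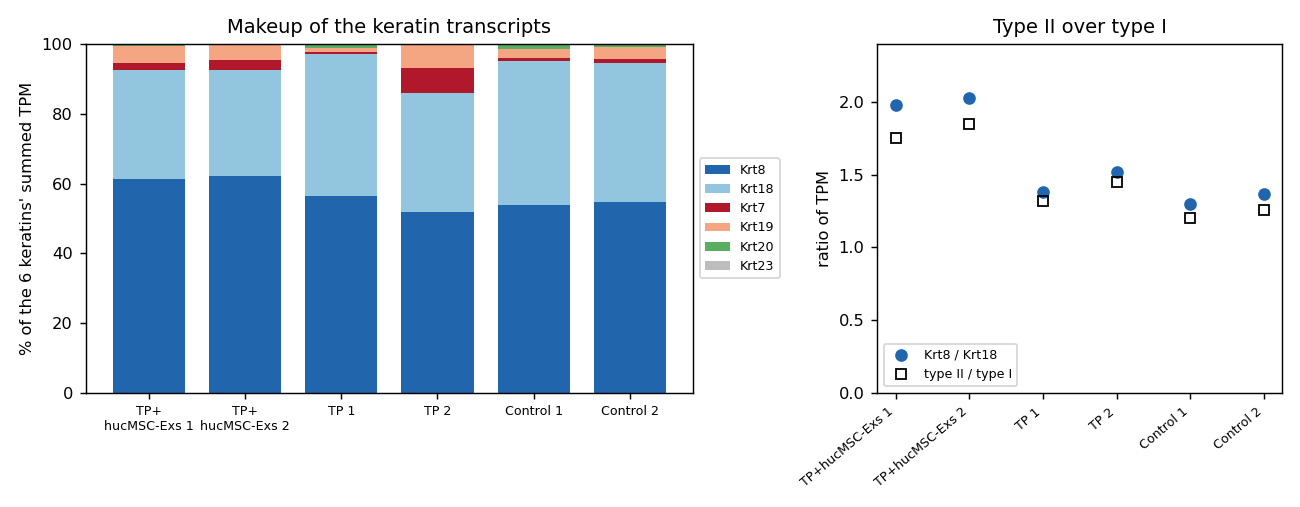
Left, the share of each keratin in the summed TPM of the 6 (vertical axis, %) per library; right, the ratio of TPM of Krt8 to Krt18 (filled circles) and of type II to type I keratins (open squares). Krt8 makes up 61.4% and 62.1% in the treated libraries and 51.8% to 56.4% in the others, and its ratio to Krt18 is 1.98 and 2.03 there, against 1.30 to 1.52.

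Other keratins were mostly at or near 0. Of 41 further keratin genes in the table, 18 were listed at 0 in all libraries, 17 stayed below 1 TPM and 6 reached it in some library; 3 passed the filter, and limma, fitted over all 6 libraries here and for the lists that follow, called none in any comparison. Krt17, a type I keratin of stressed and stratified epithelium, stood at 4.52 and 5.48 TPM in the TP+hucMSC-Exs libraries, 0.10 and 0.14 TPM in the TP libraries and 0.08 and 0.20 TPM in the controls, a log2 fold change of 3.14 ± 1.53 against TP (SE; limma adjusted p = 1). Its treated libraries stood clear of the rest, but Krt17, unlike Krt8, passed the filter only through them. Its separation and fold change are thus not independent of the filter. Krt79 was high in TP replicate 2 alone, at 35.5 TPM against 0.06 to 0.60 TPM in the other 5 libraries. Krt10, a type I keratin of the outer skin layers, reached 4.06 TPM in TP replicate 2 and 0.09 to 1.20 TPM elsewhere. Krt5, the basal keratin of stratified epithelium, was at most 0.03 TPM.

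Genes of the structures that hold keratin filaments were mixed. Of 16 linkers of desmosomes and the plakin family, 14 were in the table and 11 were tested; limma called 0 in either direction in any comparison, and 0 had an unadjusted p below 0.05. Their median log2 fold change of TP+hucMSC-Exs against TP was 0.52, against 3.17 for the keratins and -0.38 for all genes. The treated libraries lay above both TP libraries for 5 of 11 (Dsp, Jup, Pkp3, Dsc2 and Fam83h), against 5.09% of all genes. Of these, Pkp3, Dsc2 and Fam83h reached the filter's mean only through their treated libraries, so their separation is not independent of the filter. Dsp, the desmosomal plakin that anchors keratin filaments, had 6.58 and 6.70 TPM with exosomes, 1.28 and 1.73 TPM in TP and 0.97 and 1.61 TPM in the controls. Dsg2, a desmosomal cadherin, stood at 14.6 and 17.8 TPM in the treated libraries, between the TP values of 4.75 and 25.1 TPM. Jup, plakoglobin, had 19.5 and 23.5 TPM in treated libraries, above the TP values of 2.99 and 17.0 TPM, and Plec, plectin, at 5.19 and 5.29 TPM, between 0.88 and 22.5 TPM.

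Of 19 proteins that bind, chaperone or turn over keratins, 17 were tested, and limma called none in any comparison. Their median log2 fold change was 0.02 against TP and 1.88 against Control, with all-gene medians of -0.38 and 1.09. The treated libraries lay above both TP libraries for 2 of 17, against 5.09% of all genes. Sfn was among them and reached the filter's mean only through its treated libraries, so its separation is not independent of the filter. Sqstm1, the autophagy adaptor p62 found in keratin aggregates, stood at 116 and 137 TPM in the TP+hucMSC-Exs libraries, 20.9 and 148 TPM in the TP libraries and 17.6 and 23.1 TPM in the controls. Hspa8, a chaperone, had 206 and 256 TPM with exosomes, 59.3 and 761 TPM in TP and 31.2 and 48.1 TPM in the controls. Ubb, a ubiquitin gene, had 1669 and 2129 TPM with exosomes, 700.2 and 4929 TPM in TP and 533.6 and 775.9 TPM in the controls. In all 3 the treated values lay between those of the TP libraries, unlike the keratins.

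The 7 other intermediate filament genes tested had a median of -0.76 against TP, and limma called none. Vim, vimentin of mesenchymal cells, stood at 95.8 and 132 TPM in the TP+hucMSC-Exs libraries, 26.5 and 1478 TPM in the TP libraries and 9.42 and 25.7 TPM in the controls. Lmna, the nuclear lamin A/C, had 53.0 and 60.3 TPM with exosomes, 21.0 and 316 TPM in TP and 13.5 and 15.8 TPM in the controls. Des, the muscle filament desmin, had 5.22 and 6.05 TPM with exosomes, 1.83 and 45.9 TPM in TP and 0.82 and 2.54 TPM in the controls. All 3 were highest in TP replicate 2, where Krt8 and Krt18 were no higher than in TP replicate 1.

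Markers of simple epithelium, like the keratins, were highest in the treated libraries. All 15 listed genes were in the table, summing to 542 and 664 TPM in the TP+hucMSC-Exs libraries, 162 and 87.8 TPM in the TP libraries and 118 and 129 TPM in the controls. Of 13 tested, the treated libraries lay above both TP libraries without overlap for 13, against 5.09% of all genes, and the median log2 fold change was 3.09. For TP against Control the median was -0.40, against 0.30 for the keratins and 1.50 for all genes. In limma 0 of 13 passed against TP and 1 against Control, the tight-junction gene Cldn4 (log2 fold change 5.62, limma adjusted p = 0.0397). It stood at 34.98 and 49.5 TPM with exosomes, 0.37 and 0.82 TPM in TP and 0.36 and 0.35 TPM in the controls. Cldn4 thus passed the expression filter only through its treated libraries, so neither its call nor its separation is independent of the filter. Epcam, an adhesion protein of epithelial cells, stood at 78.8 and 111 TPM in the TP+hucMSC-Exs libraries, 14.9 and 3.71 TPM in the TP libraries and 10.3 and 11.4 TPM in the controls. Cdh1, E-cadherin, had 48.3 and 57.2 TPM with exosomes, 5.27 and 2.28 TPM in TP and 4.22 and 5.78 TPM in the controls. Their part in the keratin levels was not tested.

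Duct markers other than keratins were mixed. Of 13 listed, 12 were in the table and 8 were tested, with a median log2 fold change of 0.37 against TP and no call in limma. The treated libraries lay above both TP libraries for 2 of 8, against 5.09% of all genes. The duct factor Sox9 stood at 0.62 and 0.56 TPM in the TP+hucMSC-Exs libraries, 0.30 and 0.46 TPM in the TP libraries and 0.22 and 0.32 TPM in the controls. The chloride channel Cftr had 0.82 and 0.74 TPM with exosomes, 0.41 and 0.19 TPM in TP and 0.25 and 0.43 TPM in the controls. Sox9 and Cftr were below 1 TPM in every library and not tested, with the treated libraries the highest. The most abundant tested duct markers, Spp1, Muc1 and Aqp1, were each highest in a TP library. Spp1 had 88.8 and 150 TPM with exosomes and 14.0 and 558 TPM in TP. Muc1 had 31.3 and 28.1 TPM with exosomes and 33.5 and 9.11 TPM in TP. Aqp1 had 17.1 and 16.4 TPM with exosomes and 6.27 and 40.9 TPM in TP. Of 10 markers of stratified epithelium, 2 were tested, and of 6 markers of tuft cells, which contain Krt18, 1 was.

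**Figure D4:**
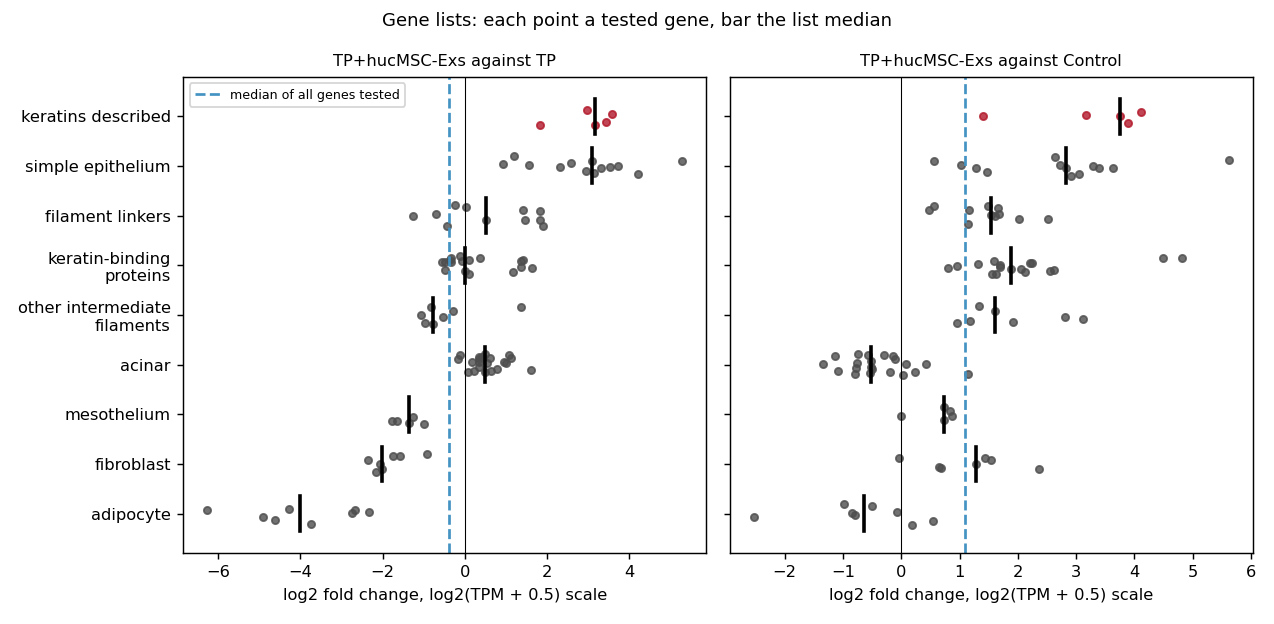
Log2 fold changes (horizontal axis, log2(TPM + 0.5) scale) of the tested genes of each list, for TP+hucMSC-Exs against TP (left) and against Control (right); bars are list medians and the dashed line the median of all genes tested. The keratins (median 3.17 left) and simple epithelium genes (3.09) lie to the right, filament linkers at 0.52 and adipocyte genes at -4.01.

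The genes most like each keratin over the 6 libraries were ranked by the root mean square (RMS) difference of centred log2 values, as a description. Krt18 was the nearest of 4875 named genes with a mean of at least 5 TPM to Krt8, at 0.26 log2 units, followed by the adhesion receptor Cxadr (0.29), Cdh1 (0.37), the cell-corner protein Lsr (0.38) and the protease inhibitor Spint1 (0.39). For Krt18 the nearest were Lsr (0.17), Spint1 (0.21), the epithelial GTPase Rab25 (0.26), Krt8 (0.26) and Cd24 (0.28). Krt7 was nearest to Shisa4 (0.42), Krt19 (0.43) and the protease matriptase, St14 (0.43), and then to Fam111a (0.46) and Rtp4 (0.49). Krt19 was nearest to the integrin Itgb4 (0.36), Cxadr (0.41), St14 (0.42), Krt7 (0.43) and Rhov (0.53). The keratins thus fell into a Krt8 and Krt18 pair and a Krt7 and Krt19 pair, with 0.65 to 1.05 between the pairs. Krt20 lay 0.81 or more from each of the others and was nearest to Slc12a8 (0.20), the microvillus protein villin, Vil1 (0.24), Proc (0.29), Ap1m2 (0.30) and Perp (0.30).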

How the data were processed

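The deposited table, 1 for the whole series, gives TPM per gene as computed by the authors, with 1 column per library and 34001 genes. The sources used here do not name an aligner, quantifier or annotation. The submitters' notes on processing list builds of the mouse genome (mm10 and GRCm38). Many genes in the table carry rat identifiers, and no coordinates of the table were used. The columns of group means and gene length entered no test. TP columns carry an unexplained number in their names and were assigned by group name and replicate number.

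Genes with a mean of at least 1 TPM (11477) were fitted over the 6 libraries with limma 3.58.1 (R 4.3.3) on log2(TPM + 0.5), with a variance trend, Benjamini-Hochberg adjustment over all genes and a threshold of 0.05. Residual degrees of freedom were 3, and the prior ones infinite, so genes of like level shared one variance. The method was run on simulated data with independent errors. These held no shift of a whole library like that of TP replicate 2, so the run cannot show how the fit handles one. P-values rest on a spread between rats pooled over genes of like level and over the groups of 2, not on each gene's own spread. The filter took the mean over all 6 libraries. A gene could thus pass through the treated libraries alone, as Krt20, Krt17, Cldn4, Pkp3, Dsc2, Fam83h and Sfn did. Alternatives covered the pseudocount, filter, scaling, trend, libraries and a replicate block. The keratins and lists were chosen with earlier results of these data known. Krt5, Krt14, Krt75, Krt80, Dsp, Pkp3, Dsc2, Fam83h, Sfn, the single cell-type markers named and the ratios to Cdh1 and Epcam were chosen after their values were seen. Named were the keratins and, per pathway list, the 3 genes of highest mean TPM and any past the threshold, plus the 5 most alike genes among those with a mean of at least 5 TPM.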

Additional observations from a re-analysis of the deposited data

How the results depend on the processing

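For TP+hucMSC-Exs against TP and against Control, the 5 keratins kept a positive log2 fold change under every alternative run, from 1.12 to 4.54 and from 0.38 to 4.73. For TP against Control, the sign turned with median-of-ratios scaling for Krt8 (-1.37), Krt18 (-1.47), Krt7 (-0.44) and Krt19 (-1.14). Leaving out libraries in turn gave -0.10 (without TP replicate 1) to 0.49 for Krt18, -0.43 (without TP replicate 2) to 2.31 for Krt7, -0.57 (without TP replicate 2) to 1.16 for Krt19 and -1.15 to 0.28 (without TP replicate 2) for Krt20. The causes were not tested. Filtering again on the remaining libraries, an alternative chosen after seeing the data, gave the same values for these 4.

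Counts of all genes past the threshold in limma, in the order TP+hucMSC-Exs against TP, TP+hucMSC-Exs against Control and TP against Control, were 8, 24 and 6. They were 0, 0 and 0 with no filter in limma (315, 368 and 160 unadjusted), 2, 2 and 0 with median-of-ratios scaling (828, 1068 and 668 unadjusted, all calls higher), and 1, 6056 and 0 with only the groups compared (59, 7606 and 85 unadjusted). A pseudocount of 1 gave 12 calls against Control for the treated group, and one of 0.1 gave 14 for TP. Leaving out libraries in turn gave 0 to 9893, 1 to 6135 and 0 to 11064 calls. Without TP+hucMSC-Exs replicate 1 they were 0, 3 and 0, without replicate 2 of that group 0, 1 and 0, without TP replicate 1 9537, 6031 and 10706, without TP replicate 2 219, 6019 and 20, without control replicate 1 1, 4 and 1, and without control replicate 2 1, 3 and 0. With the replicate block the counts were 22, 35 and 10, and no keratin was called. Replicate differences correlated at 0.135, 0.0804 and 0.279 between the groups, and no label says that a number pairs rats. Only TPM were deposited, so depth limits on Krt20 and Krt23 could not be given.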

Other observations

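Krt80, a type II keratin below the expression filter, stood at 1.86 and 1.71 TPM in the TP+hucMSC-Exs libraries, 0.02 and 0.19 TPM in the TP libraries and 0.02 and 0.03 TPM in the controls, with the treated libraries the highest. It was named after its values were seen and was not tested. Krt75 and Krt14, keratins of hair follicle and basal epithelium, were highest in TP replicate 2, at 2.38 and 1.54 TPM, against at most 0.43 and 0.48 TPM in the other libraries.

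The keratins were also set against epithelial genes. The summed TPM of the 6 keratins per summed TPM of the 15 simple epithelium genes was 1.24 and 1.26 with exosomes. It was 0.534 and 0.783 for TP, and 0.509 and 0.497 for Control, so both treated libraries were above the other 4. That sum leaned on 1 gene, Spint2, the most abundant of the 15 in every library. Spint2 made up 105 of 162 TPM in TP replicate 1 and 57.1 of 87.8 TPM in TP replicate 2. With exosomes it made up 168 of 542 and 189 of 664 TPM. The ratio without Spint2 was not computed, so the sum does not show that the keratins rose beyond epithelial genes as a group. Krt8 per Cdh1 was 8.52 and 9.06 with exosomes, 9.29 and 15.6 for TP, and 7.64 and 6.04 for Control. Krt8 per Epcam was 5.23 and 4.68 with exosomes, 3.28 and 9.60 for TP, and 3.12 and 3.06 for Control. Krt19 per Cdh1 was 0.669 and 0.617 with exosomes, 0.201 and 2.05 for TP, and 0.346 and 0.386 for Control. By these 3 single-gene ratios the treated libraries lay above both controls and did not lie above both TP libraries. The single-gene ratios were chosen after their values were seen and none of the ratios was tested.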
